A study of Mus musculus with 6 samples.

Results

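The Wnt ligands, their receptors and co-receptors, the R-spondins with their Lgr receptors, the secreted inhibitors, and the Axin and TCF/LEF genes were followed in osteoclasts of *Ctsk-Cre;Ano1fl/fl* and *Ano1fl/fl* mice. Members were taken by gene symbol alone: the Wnt, Fzd, Sfrp, Dkk and Rspo families, Lrp5 and Lrp6, Lgr4, Lgr5 and Lgr6, Wif1, Sost, Sostdc1, Axin1 and Axin2, Lef1, Tcf7, Tcf7l1 and Tcf7l2. This gave 55 of the 37074 gene names on the array, measured by 86 probes. By role they were 19 ligands, 12 receptors, 7 R-spondin and Lgr genes, 11 inhibitors, and 6 transcription factor and Axin genes.

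Osteoclasts are the bone-resorbing cells that form when precursors from bone marrow fuse. Here they were derived from bone marrow of 3 *Ctsk-Cre;Ano1fl/fl* mice and of 3 *Ano1fl/fl* littermates, and RANKL, the cytokine that induces osteoclasts, was given for 5 days to both groups. Both groups carry loxP sites around both copies of *Ano1*, the gene of the chloride channel anoctamin 1, and the groups differ by the Cre transgene. The osteoclast protocol of the study gives marrow from mice aged 6 to 8 weeks and 50 ng/ml RANKL with 30 ng/ml of the growth factor M-CSF, and most of its mouse lines were backcrossed to C57/BL6. Ctsk-Cre acts in cells that have switched on the cathepsin K gene, so precursors that have not yet done so keep the floxed gene. No group with Cre and without the floxed gene was analysed here, so effects of Cre itself and of the deletion cannot be told apart. The single probe for *Ano1* was not well above background on any of the 6 arrays, so it gives no check of the genotype labels, and each direction below rests on those labels.

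Wnt proteins are secreted, lipid-modified ligands. They bind Frizzled receptors, and with the co-receptors Lrp5 or Lrp6 they stop the Axin complex from marking beta-catenin for destruction, so that beta-catenin reaches TCF/LEF factors on DNA. Other ligands, Wnt5a among them, act through Frizzled and Ror receptors without beta-catenin. In bone, Wnt signaling is best known for promoting osteoblast formation, and it also acts on osteoclast precursors.

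Each array was a one-colour Agilent array, read with the dye Cy3 alone. Values are log2 processed signals after quantile normalization, a gene stands for its brightest probe, and a difference is always *Ctsk-Cre;Ano1fl/fl* minus *Ano1fl/fl*. Of 59305 transcript spots, 33480 to 34951 per array were well above background and none was saturated, and the number of arrays limits the precision. Arrays of a group correlated at 0.995 to 0.997 across genes, and arrays of different groups at 0.947 to 0.951. Of 16 osteoclast markers, 15 were well above background on all *Ano1fl/fl* arrays and 16 on all *Ctsk-Cre;Ano1fl/fl* arrays, and 15 were higher and 1 lower in the latter, their summed linear signal being 237000 to 255000 in the *Ano1fl/fl* arrays and 647000 to 732000 in the others. The study itself describes functional osteoclast markers as lower in *Ctsk-Cre;Ano1fl/fl* osteoclasts in other measurements, so the direction on these arrays, read by their labels, is the opposite one for these genes. *Ctsk* had a mean of 13.89 ± 0.17 against 17.06 ± 0.10 and *Acp5* of 16.87 ± 0.07 against 17.71 ± 0.03 (SD, n = 3 each). The 1 lower marker was *Tnfrsf11a*, the gene of the RANKL receptor RANK, with a difference of -0.40 ± 0.12 (SE, limma, adjusted p = 0.0332).

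Markers of other cells that a marrow culture can hold also moved with the groups. Of 22 stromal cell and osteoblast markers 20 were tested, 16 of them higher and 2 lower, and their summed signal was 24300 to 26600 in *Ano1fl/fl* and 95300 to 140000 in *Ctsk-Cre;Ano1fl/fl*. *Acta2*, the brightest of these markers in *Ano1fl/fl*, had a mean of 14.31 ± 0.06 against 14.85 ± 0.08 (SD, n = 3 each), a 1.46-fold rise. In linear signal *Acta2* made up most of the *Ano1fl/fl* sum, so the sum rose by a smaller factor than it would without *Acta2*. *Col1a2* had a mean of 8.74 ± 0.29 against 14.13 ± 0.40 and *Sparc* of 10.28 ± 0.34 against 15.09 ± 0.40 (SD, n = 3 each). Among the osteoblast genes, *Alpl* had 4.49 ± 0.16 against 10.01 ± 0.31, *Runx2* was lower by 0.46 on the log2 scale (adjusted p = 0.0494), *Sp7* was detected on all arrays and did not pass the test, and *Ibsp* and *Bglap* were well above background on 0 arrays and 1 array. Of 12 B cell markers 9 were tested, 8 higher and 1 lower, with a summed signal of 38800 to 43400 against 90200 to 123000. The macrophage list, 2 higher and 5 lower of 14 tested, went from 711000 to 731000 up to 759000 to 837000. Its 2 higher genes were *Adgre1* and *Marco*, the latter at 14.21 ± 0.09 against 17.21 ± 0.18. In linear signal *Marco* rose by more than the sum did, and *Cx3cr1* and *Ccr2* differed by -4.62 and -3.36. The neutrophil list, 2 higher and 9 lower of 13, went from 373000 to 392000 down to 239000 to 292000. Endothelial markers gave 1 higher and 2 lower of 7, T and NK cell markers 4 and 3 of 15, and erythroid markers 0 and 2 of 3. In RNA of whole cultures, fewer cells of a type and less RNA per cell cannot be told apart. The part of these shifts in the Wnt gene differences was not tested.

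Of the 55 genes, 32 were well above background on at least 1 array and 23 on none. By the weaker mark of the scanner software, a signal above and significantly different from background, these counts were 46 and 9, with 33 genes marked on all 6 arrays and 2 on all of the *Ctsk-Cre;Ano1fl/fl* arrays alone. Detection was uneven between the groups: 18 genes were well above background on all 6 arrays, and *Wnt9a*, *Fzd2*, *Fzd9*, *Lgr4* and *Rspo2* were so on all 3 *Ctsk-Cre;Ano1fl/fl* arrays and on no *Ano1fl/fl* array. The reverse pattern was found for 0 genes. In all, 8 of the 55 were detected on every array of the *Ctsk-Cre;Ano1fl/fl* group and on fewer of the other, and 0 the other way round, where 975 and 1026 genes of the whole array were. *Dkk3*, *Wnt10b* and *Sfrp2* were detected on all 3 *Ctsk-Cre;Ano1fl/fl* arrays and on 2, 1 and 1 *Ano1fl/fl* arrays.

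**Figure D1:**
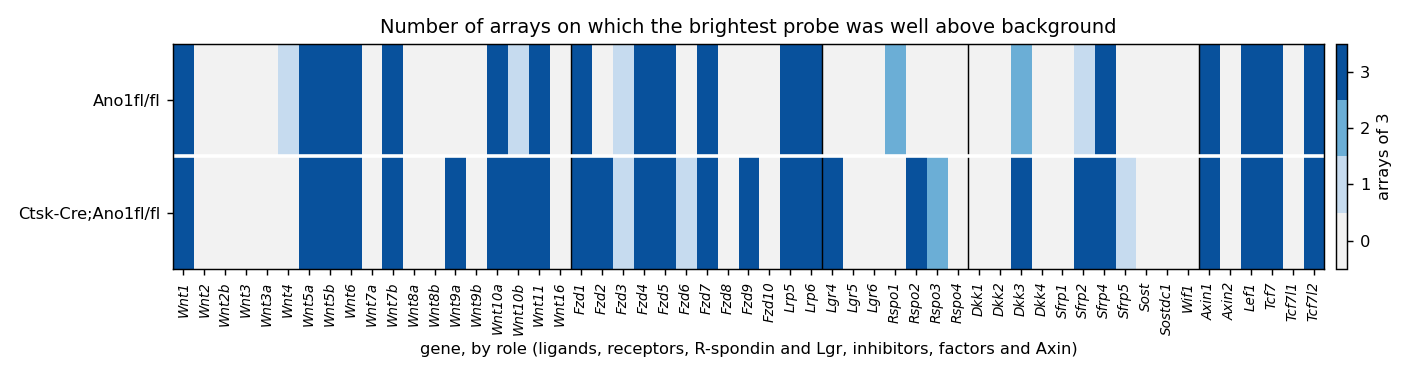
Number of arrays, of 3 per group, on which the brightest probe of each of the 55 genes was well above background, with the genes in columns by role and the 2 groups in rows. Dark cells are genes detected on all 3 arrays of a group, 18 in the upper row and 26 in the lower, and pale grey cells are genes detected on none.

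The 23 genes that were well above background on no array, 14 of which had the weaker mark on at least 1, include the ligands *Wnt2*, *Wnt2b*, *Wnt3*, *Wnt3a*, *Wnt7a*, *Wnt8a*, *Wnt8b*, *Wnt9b* and *Wnt16*, the receptors *Fzd8* and *Fzd10*, and the R-spondin group members *Lgr5*, *Lgr6* and *Rspo4*. The inhibitors *Dkk1*, *Dkk2*, *Dkk4*, *Sfrp1*, *Sost*, *Sostdc1* and *Wif1* were among them too, as were *Tcf7l1* and *Axin2*, the feedback inhibitor often read as a marker of beta-catenin activity. *Axin2* had a mean of 1.85 ± 0.04 and 1.85 ± 0.06 (SD, n = 3 each), at the bottom of the scale. Such values carry no level, only that the gene was not well above background.

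The test was run for a gene once at least 1 group had its probe well above background on all of its arrays, as was the case for 26 of the 55. The other 8 beyond those on all 6 arrays passed that filter only through the *Ctsk-Cre;Ano1fl/fl* group, so a rise was fixed for them by their choice and they are described singly. Of the 18 genes well above background on all 6 arrays, in a fit of such genes alone, 9 were higher and 4 lower at an adjusted p under 0.05 by limma and 5 did not pass the test, against 22.2% higher and 29.5% lower among the 18644 genes that met the same condition. A rise of more than 2-fold was called for 8 of the 18 against 7.00% of those genes, and a fall of that size for 0 against 5.77%. The groups did not overlap for 13 of the 18, against 62.7%, and the median difference was 0.36 against -0.06.

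Over all 26 tested genes 17 were called higher and 4 lower, where 23.4% and 29.0% of the 20645 genes tested across the array were. Of the 17, 16 were higher by more than 2-fold (9.88% of all genes tested), and 0 of the 4 were lower by that much (7.19%). The 2 groups of arrays did not overlap for 21 (64.0%). The 26 include the 8 that had to rise, so these counts describe them and support nothing about the list.

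**Figure D2:**
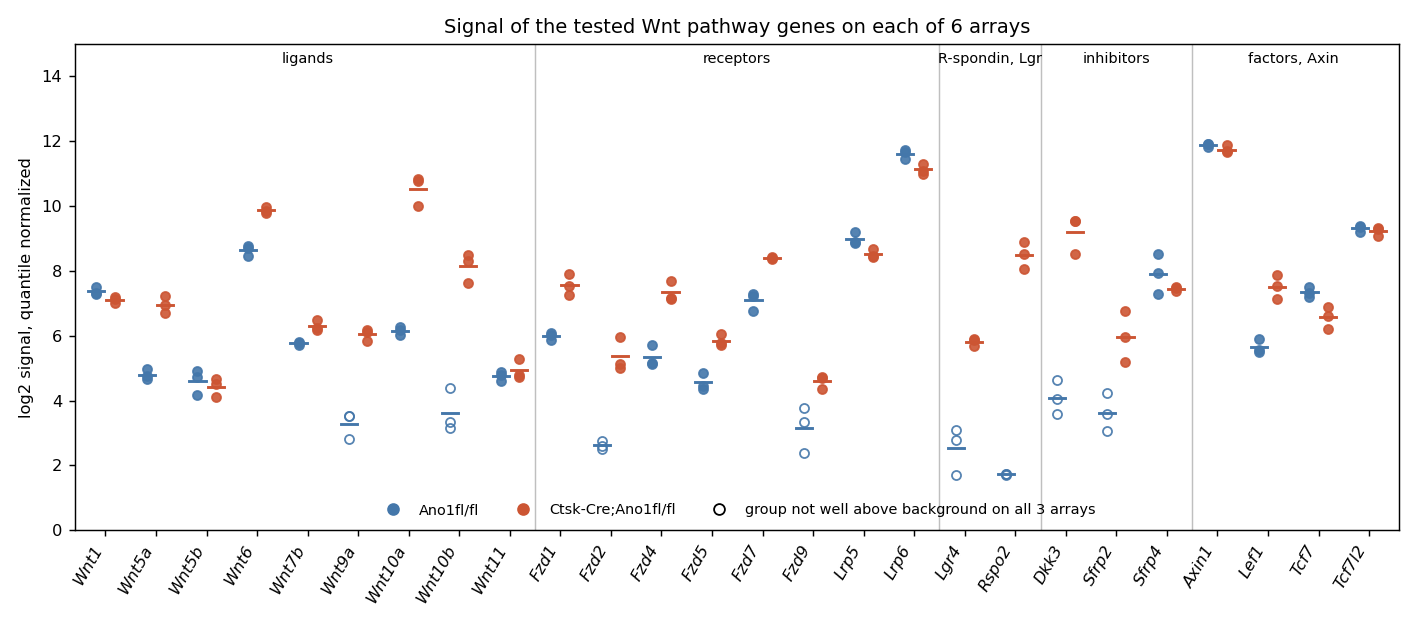
Log2 signal of the 26 tested genes on each of the 6 arrays (points) with the group means (bars), blue for *Ano1fl/fl* and orange for *Ctsk-Cre;Ano1fl/fl*, by role. Open points mark a group in which fewer than 3 arrays were well above background, which is the case for 8 genes and only in *Ano1fl/fl*, and heights of different genes come from different probes and are not comparable.

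Among the ligands, *Wnt10a*, *Wnt10b*, *Wnt9a*, *Wnt5a* and *Wnt6* were more than 2-fold higher in *Ctsk-Cre;Ano1fl/fl* osteoclasts, *Wnt7b* was higher by less, and *Wnt1* was lower. *Wnt10b* and *Wnt9a* entered the test only through the *Ctsk-Cre;Ano1fl/fl* group. *Wnt5b* and *Wnt11* did not pass it. *Wnt10a* and *Wnt10b* are a pair of closely related ligands that act through beta-catenin and are known for restraining fat cell formation from mesenchymal precursors, and *Wnt10b* also for raising bone mass.

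*Wnt10a* read 6.27, 6.19 and 6.01 in *Ano1fl/fl* and 10.77, 10.01 and 10.82 in *Ctsk-Cre;Ano1fl/fl*. All 6 readings were well above background and the groups lay far apart. The difference was 4.38 ± 0.23 (SE), or 20.8-fold (limma, adjusted p = 4.84e-05). *Wnt10b* read 3.34, 3.15 and 4.39 against 8.29, 7.64 and 8.50, and of the first 3 readings 1 was well above background. Its difference of 4.52 ± 0.38 (adjusted p = 0.000251) therefore starts from a level that is measured on 1 array only, and a second probe, well above background on no *Ano1fl/fl* array, was at least 4.02-fold higher.

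*Wnt9a* read 2.82, 3.51 and 3.52 on arrays where it was not well above background, and 6.11, 6.18 and 5.85 where it was. Such a gene has only a bound on its fold, the mean of the bright group against, for each dim array, the weakest signal that still counted as well above background or the probe's own value, whichever is higher. By this bound *Wnt9a* was at least 4.23-fold higher (adjusted p = 0.000176). The 3 *Ctsk-Cre;Ano1fl/fl* readings all exceeded the 3 others.

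*Wnt5a*, the prototype of ligands that signal without beta-catenin and known in bone for acting on osteoclast precursors through Ror2, read 4.66, 4.96 and 4.75 against 6.94, 7.22 and 6.71. The difference was 2.17 ± 0.15, or 4.5-fold (adjusted p = 0.000119), and a second probe that was not well above background in *Ano1fl/fl* was at least 1.69-fold higher. *Wnt6* was well above background on all arrays, with 8.46, 8.78 and 8.70 against 9.98, 9.84 and 9.80. The rise was 1.22 ± 0.11, or 2.34-fold (adjusted p = 0.000296), and the lowest of the higher readings was a full log2 unit above the highest of the others.

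The remaining ligands moved little or depended on the probe. *Wnt7b* was higher by 0.54 ± 0.10 by its brightest probe (adjusted p = 0.00538) and lower by its second, with a difference of -1.04 ± 0.27 (adjusted p = 0.0177), so these arrays give it no settled direction. *Wnt1*, the founding member of the family, read 7.33, 7.51 and 7.30 against 7.19, 7.13 and 7.02, which is a difference of -0.27 ± 0.09 (adjusted p = 0.0427) that lost its call in 12 of 15 alternatives, among them all 6 that left out 1 array (adjusted p = 0.056 to 0.12). *Wnt11* differed by 0.18 ± 0.16 (adjusted p = 0.394), with a 95% interval of -0.22 to 0.57, and *Wnt5b* by -0.19 ± 0.23 (adjusted p = 0.526), with an interval of -0.75 to 0.38. *Wnt4* was well above background on 1 *Ano1fl/fl* array and no other and was not tested.

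Several Wnt genes lie next to each other in the genome, and neighbours did not always move together. On mouse chromosome 1 the probes of *Wnt6* (chr1:74831461-74831520, build mm9) and *Wnt10a* (chr1:74850633-74850692) are 19.1 kb apart, and both genes were higher. *Wnt10b* (chr15:98602209-98602268) and *Wnt1* (chr15:98624201-98624260) are 21.9 kb apart, and the first rose while the second did not, its small fall being lost in most alternatives. On chromosome 11, *Wnt9a* (chr11:59146953-59147012) was higher and *Wnt3a* (chr11:59061659-59061718), 85.2 kb away, was not well above background, as were both *Wnt9b* and *Wnt3*, 88.5 kb apart. The 250 bases before the start of *Wnt10b* (RefSeq, GRCm38.p6, chr15:98778151-98778400, minus strand) and of *Wnt1* (chr15:98789607-98789856, plus strand) are shown because these neighbours, transcribed away from each other, did not rise together. They are printed 5′ to 3′ on the strand of each gene, in lower case throughout, since neither holds the TCF/LEF letters searched for further on.
Wnt10b: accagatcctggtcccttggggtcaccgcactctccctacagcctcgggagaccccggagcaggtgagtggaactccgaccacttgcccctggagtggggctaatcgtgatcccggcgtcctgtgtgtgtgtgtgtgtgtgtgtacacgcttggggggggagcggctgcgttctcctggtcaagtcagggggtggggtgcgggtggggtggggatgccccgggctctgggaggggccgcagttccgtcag
Wnt1: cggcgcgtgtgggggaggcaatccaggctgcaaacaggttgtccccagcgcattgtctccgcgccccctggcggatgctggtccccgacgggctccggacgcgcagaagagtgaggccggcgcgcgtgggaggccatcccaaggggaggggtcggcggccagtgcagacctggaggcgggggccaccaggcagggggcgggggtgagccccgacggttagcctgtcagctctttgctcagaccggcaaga
Of the bases shown, 66.8% are G or C for *Wnt10b* and 71.6% for *Wnt1*. The median was 66.6% over the promoters of the Wnt genes, with a range of 40.8% to 87.6%, and 52.4% over all promoters of the same table.

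Of the Frizzled genes, which code for the membrane receptors that bind Wnt directly, *Fzd1*, *Fzd4*, *Fzd5* and *Fzd7* were well above background on all 6 arrays and higher in *Ctsk-Cre;Ano1fl/fl*, a call made for 22.2% of all genes so detected. *Fzd2* and *Fzd9* entered the test only through that group. The co-receptors *Lrp5* and *Lrp6*, detected on all arrays, were lower, a call made for 29.5%.

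*Fzd4*, a receptor that also binds Norrin, read 5.70, 5.14 and 5.15 against 7.14, 7.69 and 7.17. It was 4.01-fold higher, with a 95% interval of the log2 difference of 1.48 to 2.52 (adjusted p = 0.000617), and its second probe gave a difference of 2.65 ± 0.27. *Fzd1* read 6.08, 5.87 and 6.03 against 7.91, 7.54 and 7.27 and was 2.99-fold higher, with a difference of 1.58 ± 0.17 (adjusted p = 0.000613). For both receptors every *Ctsk-Cre;Ano1fl/fl* array lay above every *Ano1fl/fl* array.

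*Fzd7* read 6.75, 7.29 and 7.23 against 8.38, 8.42 and 8.41, a difference of 1.32 ± 0.15 or 2.49-fold (adjusted p = 0.000802). Its 3 higher readings were nearly identical and the spread was among the *Ano1fl/fl* arrays. *Fzd5* read 4.84, 4.46 and 4.37 against 5.72, 6.05 and 5.77 and was 2.44-fold higher, with a difference of 1.29 ± 0.15 (adjusted p = 0.000948), and its second probe, not well above background in *Ano1fl/fl*, was at least 1.38-fold higher.

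*Fzd2* and *Fzd9* were seen only in the *Ctsk-Cre;Ano1fl/fl* arrays. *Fzd2* read 2.60, 2.75 and 2.52, not well above background, against 5.95, 5.12 and 5.01, at least 2.62-fold higher (adjusted p = 0.000366). *Fzd9* read 3.33, 3.78 and 2.39, not well above background, against 4.37, 4.69 and 4.72, at least 1.54-fold higher (adjusted p = 0.0148). The methods' t-test, which the study names for comparing a pair of groups in general, lost the call of *Fzd9* (adjusted p = 0.0571), and normexp correction left a difference of 0.29. The bound for *Fzd9* is under 2-fold, since its higher readings were themselves dim.

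The co-receptors moved the other way by small amounts. *Lrp5*, in which human loss-of-function changes lower bone mass, read 9.21, 8.90 and 8.86 against 8.44, 8.68 and 8.47. Its difference of -0.46 ± 0.12 (adjusted p = 0.0208) was lost without *Ctsk-Cre;Ano1fl/fl* replicate 1 (adjusted p = 0.0648) or replicate 3 (adjusted p = 0.0614), by the methods' t-test (adjusted p = 0.0537) and with the replicate block (adjusted p = 0.0536), and its second probe gave -1.19 ± 0.33. *Lrp6* read 11.72, 11.46 and 11.68 against 11.00, 11.31 and 11.08, a difference of -0.48 ± 0.12 (adjusted p = 0.0141), but its second probe gave 0.07 ± 0.10 and did not pass. The call of *Lrp6* was lost with the mean of all probes (adjusted p = 0.0781) and with the replicate block (adjusted p = 0.0541). *Fzd3* was well above background on 1 array of each group and *Fzd6* on 1 *Ctsk-Cre;Ano1fl/fl* array, and neither was tested.

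**Figure D3:**
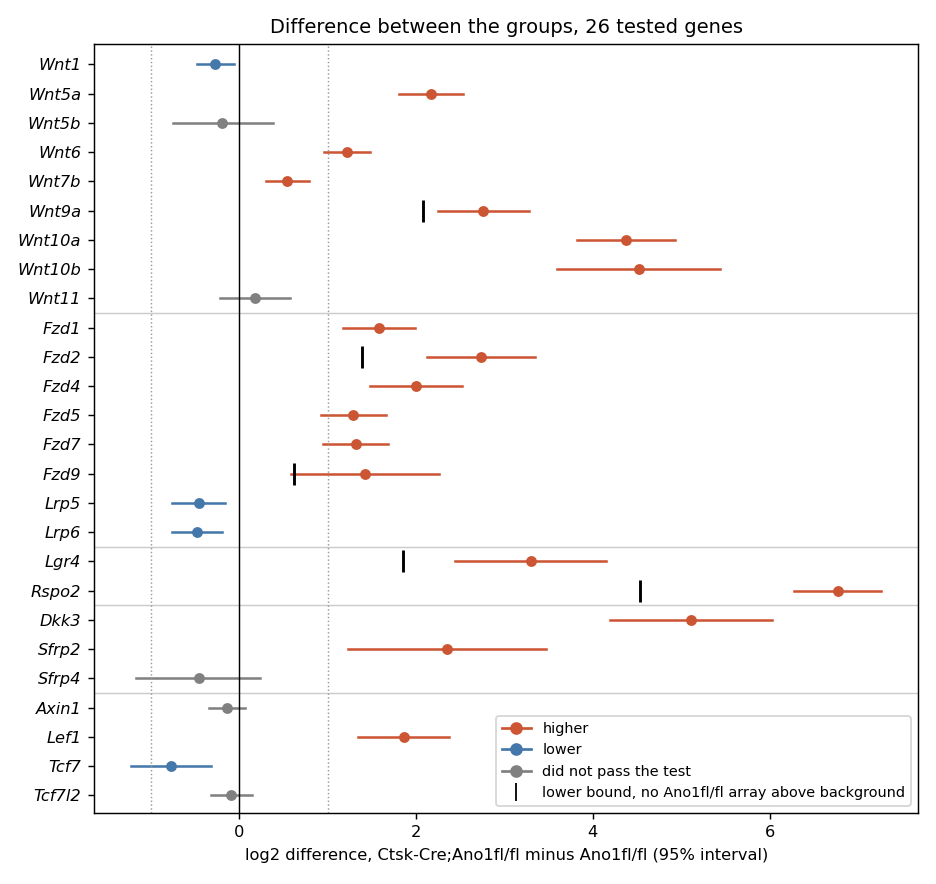
Log2 difference between the groups (points) with its 95% interval (lines) for the 26 tested genes, in orange where higher, blue where lower and grey where the test was not passed, with dotted lines at 2-fold in either direction. Black ticks give the lower bound for the 5 genes that no *Ano1fl/fl* array detected, from *Fzd9* at 0.62 to *Rspo2* at 4.53.

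R-spondins are secreted proteins that strengthen Wnt signaling by binding Lgr4, Lgr5 or Lgr6 and clearing the ligases Znrf3 and Rnf43, which otherwise remove Frizzled receptors. The ligand *Rspo2* and the receptor *Lgr4* were tested, both only through the *Ctsk-Cre;Ano1fl/fl* group, in which alone they were detected. *Rspo2* read 1.70, 1.74 and 1.74, the bottom of the scale, on the *Ano1fl/fl* arrays and 8.90, 8.52 and 8.07 on the others. It was at least 23.1-fold higher (adjusted p = 1.04e-05), and its second probe was well above background on no array.

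*Lgr4*, which in osteoclast precursors is also known as a receptor for RANKL, read 3.09, 1.69 and 2.79, not well above background, against 5.88, 5.90 and 5.68. It was at least 3.6-fold higher (adjusted p = 0.000616), and its 2 other probes were well above background on no array. *Rspo3* read 3.24, 1.77 and 2.73, not well above background, against 5.60, 4.50 and 4.03, of which 2 were well above background. *Rspo1* read 3.92, 4.31 and 4.42, of which 2 were well above background, against 2.89, 2.05 and 3.88, of which none was. Neither was tested. The groups did not overlap in either gene, for *Rspo1* only by 3.92 against 3.88. Readings that are not well above background carry no level, so no direction is given for these genes. The ligases themselves did not pass the test, with differences of -0.03 ± 0.08 for *Znrf3* and 0.30 ± 0.17 for *Rnf43*.

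Of the 11 secreted inhibitors 3 were tested, and *Dkk3* and *Sfrp2* entered the test only through the *Ctsk-Cre;Ano1fl/fl* group. *Dkk3*, a Dickkopf family member that does not bind Lrp5 and Lrp6 as its relatives do, read 4.62, 4.06 and 3.57 in *Ano1fl/fl*, well above background on 2 arrays, and 9.53, 8.51 and 9.55 in *Ctsk-Cre;Ano1fl/fl*. Its difference was 5.11 ± 0.38 (adjusted p = 0.000153). A second probe, not well above background in *Ano1fl/fl*, was at least 13.3-fold higher, and the last one was well above background on no array.

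*Sfrp2*, a decoy that binds Wnt proteins in the extracellular space, read 4.23, 3.57 and 3.05 against 6.76, 5.19 and 5.95. Only 1 of the first 3 readings was well above background, the groups did not overlap, and the difference was 2.35 ± 0.46 (adjusted p = 0.00667). *Sfrp4*, a relative whose loss in people causes a bone disorder with thin cortical bone, read 8.51, 7.93 and 7.29 against 7.49, 7.38 and 7.47. The *Ano1fl/fl* arrays were widely spread and the groups overlapped, and the difference of -0.46 ± 0.29 did not pass the test (adjusted p = 0.226, 95% interval -1.17 to 0.24). Without *Ano1fl/fl* replicate 3, the lowest of its group, the difference was -0.77 and passed (adjusted p = 0.023). *Sfrp5* was well above background on 1 *Ctsk-Cre;Ano1fl/fl* array and was not tested.

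At the nuclear end, *Lef1* was higher and *Tcf7* lower. Both code for factors that carry beta-catenin to DNA, and both are also known from early lymphocytes, whose B cell markers were higher on the same arrays (8 of 9 tested, as given above). *Lef1* read 5.56, 5.49 and 5.91 against 7.54, 7.12 and 7.87, a difference of 1.86 ± 0.21 or 3.62-fold (adjusted p = 0.000794), and its 2 other probes were well above background on no array.

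*Tcf7* read 7.33, 7.18 and 7.51 against 6.60, 6.22 and 6.90, without overlap. Its difference was -0.77 ± 0.18 (adjusted p = 0.0145), a second probe gave -0.84 ± 0.14 (adjusted p = 0.00296), and its last probe was not well above background. The methods' t-test lost the call of *Tcf7* (adjusted p = 0.0513). *Tcf7l2*, the TCF factor of the intestine and of many other tissues, differed by -0.09 ± 0.09 (adjusted p = 0.475, 95% interval -0.32 to 0.14). Its other probes gave -0.42 ± 0.18, -0.54 ± 0.26 and -0.13 ± 0.17. None of them passed the test, though the groups did not overlap for those at -0.42 and -0.54. *Axin1*, the scaffold of the destruction complex, was bright in both groups and differed by -0.14 ± 0.08 (adjusted p = 0.197, 95% interval -0.34 to 0.06).

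Since *Lef1* binds promoters, the 250 bases before each start were searched for the TCF/LEF letters, CTTTG followed by AA, AT, TA or TT, on both strands. RefSeq entries (GRCm38.p6) were matched for 36 of the 55 genes, with 44 starts. The letters were found in 6 of the 44, or 13.6%, against 14.8% of all 32851 promoters of that table. Among genes higher by more than 2-fold, 11 had an entry with 14 starts, and 2 of these held a match: that of *Fzd7* (chr1:59481897-59482146, plus strand), 130 bases before the start, and 1 of the 4 starts of *Lef1* (chr3:131156044-131156293, plus strand), 147 bases before it. These are shown, with the match in capitals. In both it lies on the other strand and so reads as the reverse complement.
Fzd7: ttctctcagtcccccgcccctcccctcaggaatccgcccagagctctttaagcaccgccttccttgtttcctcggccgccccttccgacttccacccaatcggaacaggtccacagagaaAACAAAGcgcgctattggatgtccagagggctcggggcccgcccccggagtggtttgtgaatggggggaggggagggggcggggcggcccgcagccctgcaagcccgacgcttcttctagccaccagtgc
Lef1: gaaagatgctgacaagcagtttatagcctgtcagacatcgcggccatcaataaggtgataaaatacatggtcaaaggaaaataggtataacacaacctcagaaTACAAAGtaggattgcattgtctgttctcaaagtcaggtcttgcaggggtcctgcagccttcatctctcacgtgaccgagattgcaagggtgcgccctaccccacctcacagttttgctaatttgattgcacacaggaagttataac
A match of these letters is a description of the sequence and not a binding site, and no match says only that the letters are not in this window.

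Of the 26 tested genes 16 had several probes, and 12 had several that were tested. The calls were the same for all tested probes of 10 of the 12, with *Wnt5a*, *Wnt10b*, *Fzd5* and *Dkk3* each having 1 probe that no *Ano1fl/fl* array detected. These 10 were *Wnt5a*, *Wnt10b*, *Wnt11*, *Fzd4*, *Fzd5*, *Lrp5*, *Dkk3*, *Axin1*, *Tcf7* and *Tcf7l2*. *Wnt7b* had opposite calls and *Lrp6* a call by 1 of 2 probes. Probes of a gene lie at different places of its transcripts, and whether they read different isoforms was not tested.

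**Figure D4:**
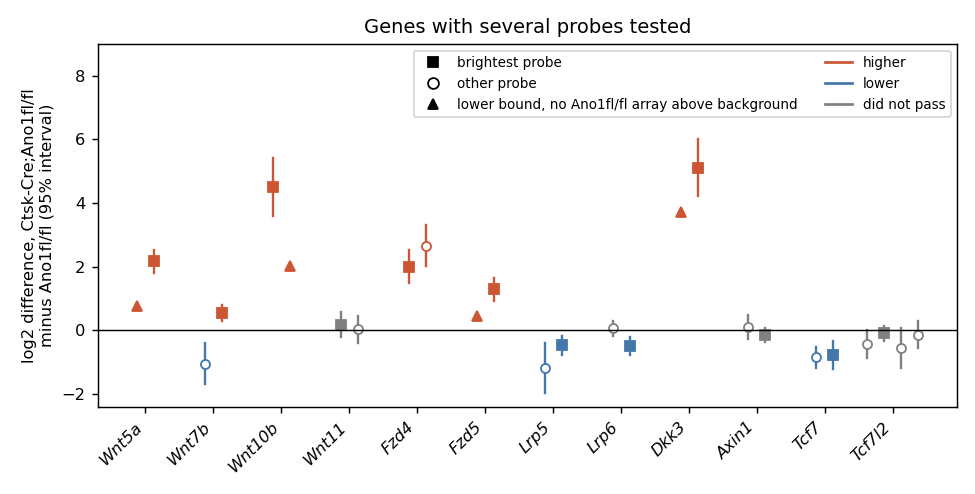
Log2 difference with its 95% interval for each tested probe of the 12 genes with several, squares for the brightest probe and open circles for the others, coloured by call as higher (orange), lower (blue) or not passed (grey). The probes of *Wnt7b* lie on opposite sides of 0, at 0.54 and -1.04, and both probes of *Fzd4* lie above 0. Triangles give the lower bound, without an interval, for the 4 probes that no *Ano1fl/fl* array detected, from *Fzd5* at 0.46 to *Dkk3* at 3.73.

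The other genes of the pathway were taken from 4 lists: proteins of the cell surface and of Wnt secretion, the destruction complex with effectors and co-factors, the planar polarity and calcium branch, and genes commonly read as targets of beta-catenin. The lists overlap, so their counts are not independent. *Notum*, *Znrf3*, *Rnf43*, *Apcdd1* and *Bambi* are in both the surface and the target list, and *Nkd1* in the destruction complex and target lists. The surface list had 21 of 32 genes tested, 11 of them higher (52.4%, against 23.4% of all genes tested) and 4 lower (19.0%, against 29.0%), and 3 of the 11, *Ror2*, *Cthrc1* and *Tspan12*, entered only through the *Ctsk-Cre;Ano1fl/fl* group, so that their rise was fixed. The 3 largest fitted rises were those of *Serpinf1*, which codes for the secreted factor PEDF, at 4.99 ± 0.20 (adjusted p = 2.01e-05), *Cthrc1*, a secreted co-factor of Wnt5a signaling, at least 11-fold (adjusted p = 0.000134), and *Ror2*, the Wnt5a receptor, at least 4.07-fold (adjusted p = 3.06e-05). *Ror2* read 1.70, 1.72 and 1.71, not well above background, against 6.31, 6.14 and 5.53. *Gpc4*, a glypican, at 3.89 ± 0.14, and the Wnt receptor *Ryk*, at 3.28 ± 0.15, were detected on all arrays and were added after their values were seen. Both rose by more than the log2 bound of *Ror2*, 2.02, and *Gpc4* also by more than that of *Cthrc1*, 3.45. The inhibitor genes *Apcdd1* and *Igfbp4* fell by 1.27 ± 0.14 (adjusted p = 0.000614) and 1.16 ± 0.33 (adjusted p = 0.0274) on the log2 scale. *Wls* and *Porcn*, which every Wnt protein needs for export and lipid attachment, differed by -0.02 ± 0.09 and 0.10 ± 0.12 and did not pass the test.

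In the destruction complex list 43 of 47 genes were tested. Of these 8 were higher (18.6%, against 23.4% of all genes tested), 9 lower (20.9%, against 29.0%) and 26 without a call (60.5%, against 47.6%). *Ctnnb1*, beta-catenin itself, differed by 0.13 ± 0.07 (adjusted p = 0.147), *Gsk3b* by 0.04 ± 0.15 (adjusted p = 0.842), and *Apc* by -0.57 ± 0.13 (adjusted p = 0.0124). Changes over 2-fold were called for *Dact2*, a partner of Dishevelled that entered the test only through the *Ctsk-Cre;Ano1fl/fl* group and was at least 9.49-fold higher, for *Cxxc5*, an inhibitor of Dishevelled, at 1.17 ± 0.25 (adjusted p = 0.00971), and for *Amer1*, a partner of Apc, at -1.22 ± 0.10 (adjusted p = 0.000235). In the planar polarity and calcium list 31 of 35 were tested, 9 higher (29.0%) and 6 lower (19.4%), led by *Prickle1* at 2.97 ± 0.14 (adjusted p = 3.18e-05), *Nfatc4* at 1.73 ± 0.18 (adjusted p = 0.000584) and *Prkca* at 1.50 ± 0.16 (adjusted p = 0.000639). The polarity cadherin *Celsr1* was lower, at -2.09 ± 0.11 (adjusted p = 4.34e-05).

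Genes commonly read as targets of beta-catenin went in both directions. Of 32 listed, 21 were tested, 11 higher (52.4%, against 23.4% of all genes tested) and 3 lower (14.3%, against 29.0%), and 16 of the 21 were well above background on all 6 arrays. The higher genes *Wisp1*, *Tbx3* and *Tnfrsf11b* entered only through the *Ctsk-Cre;Ano1fl/fl* group, and the lower gene *Mmp7* only through the *Ano1fl/fl* group, so that their directions were fixed. *Tbx3*, a T-box factor, was at least 27.3-fold higher (adjusted p = 2.69e-05), and *Wisp1*, a matricellular protein also called Ccn4, at least 75.4-fold (adjusted p = 1.53e-05). *Ascl2*, a factor of intestinal stem cells, read 4.14, 5.30 and 5.00 against 9.84, 10.46 and 10.57, all well above background, and differed by 5.47 ± 0.34 (adjusted p = 8.38e-05).

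*Ccnd1*, cyclin D1, read 11.41, 12.50 and 12.02 against 9.61, 9.55 and 9.41, a difference of -2.45 ± 0.26 or 5.47-fold lower (adjusted p = 0.000634). *Mmp7* was at least 2.4-fold lower (adjusted p = 1.36e-05), being well above background on no *Ctsk-Cre;Ano1fl/fl* array. Of genes that feed back on the pathway, *Notum* differed by 0.00 ± 0.08 (adjusted p = 0.991), and *Sp5* and *Nkd1*, like *Axin2*, were well above background on no array.

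In a separate fit of the 18644 genes well above background on all 6 arrays, with p adjusted over these alone, 22.2% were higher and 29.5% lower with a median difference of -0.06. In that fit the surface list had 8 higher and 4 lower of 18 with a median difference of 0.18, and the destruction complex list 7 and 10 of 42 with a median of -0.06, the latter being 1 more lower gene than in the fit of all tested genes. The polarity and calcium list had 9 and 6 of 30 with a median of 0.14, and the target list 8 and 2 of 16 with a median of 0.29.

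**Figure D5:**
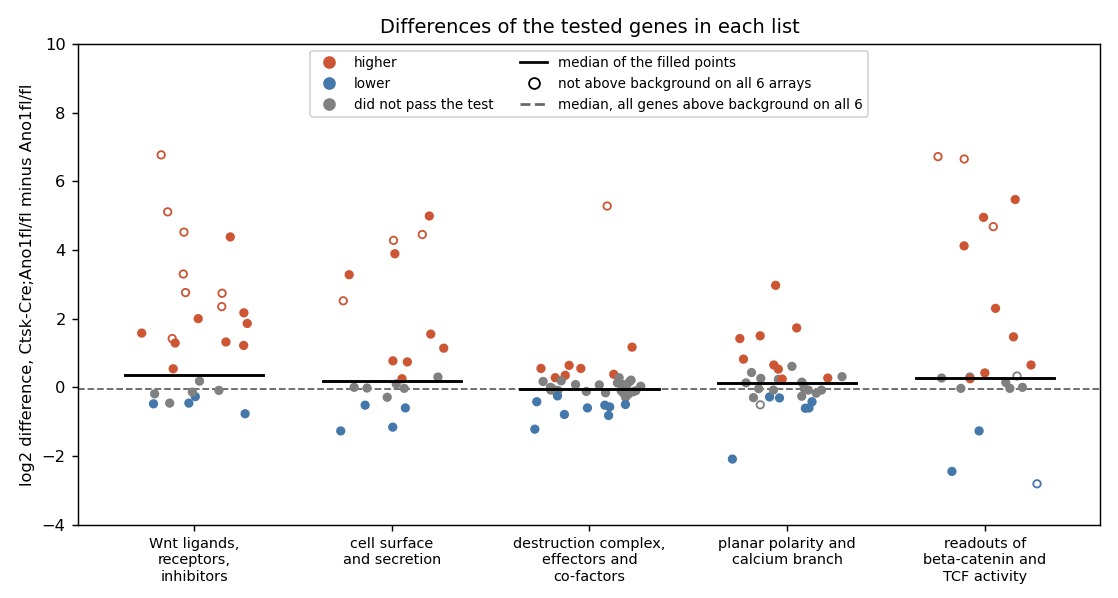
Log2 difference of each tested gene (points) in the 26 Wnt genes and the 4 lists of other pathway genes, orange where higher, blue where lower and grey where the test was not passed, with open points for genes not well above background on all 6 arrays. Black bars are medians over the filled points, 0.36 for the Wnt genes, and the dashed line is the median of all genes well above background on all 6 arrays, -0.06.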

How the data were processed

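RNA of 3 *Ctsk-Cre;Ano1fl/fl* and 3 *Ano1fl/fl* osteoclast samples was read on 6 Agilent one-colour arrays. The authors deposited the intensity values of each spot as Agilent Feature Extraction 10.7.1.1 gave them, per the file headers, with the marks of that software for spots well above background, outliers and saturation. The deposited series matrix holds intensities equal to the median brightness of each spot. Probe positions are in build mm9. The study normalized by a quantile algorithm.

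The processed signals were log2 transformed and quantile normalized, outlier and control spots were left out, and spots of a probe were averaged. A probe was well above background where at least 0.5 of its spots were. The groups were compared with limma 3.58.1 in R 4.3.3, adjusting p over 20645 genes after Benjamini and Hochberg, or, for second and further probes of a gene, over 31848 probes in a separate fit, in a script tested on simulated data. An exact permutation test of 3 against 3 arrays cannot go below p = 0.1. The 6 arrays were on 1 slide and carried 1 scan day. Probes lacking a value on any array (14) were not used. Other software was Python 3.11.15 with matplotlib 3.10.9 and pandas 2.3.3, and data.table, version 1.17.8.

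Every member was named. Members changed by more than 2-fold and tested members that 1 of the groups did not detect at all were given array by array, and of each pathway list the 3 largest fitted rises and falls past 2-fold were named, with other genes of the lists added for their role after their values were seen. The members and lists were chosen with earlier results of these data known. Alternatives were the series matrix, normexp correction of the background (offset 50), scaling to the 75th percentile, other filters and probe rules, other tests, the replicate number as a block, and leaving out each array.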

Additional observations from a re-analysis of the deposited data

How the results depend on the processing

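With 3 arrays per group, small differences near the threshold depended on the setting, and dim genes have only bounds. The size of large differences depended on the background step. Normexp correction, whose offset of 50 shrinks differences of dim genes by construction, took *Rspo2* from 6.77 to 2.73, *Dkk3* from 5.11 to 3.05, *Fzd2* from 2.74 to 0.60, *Wnt9a* from 2.76 to 0.81 and *Fzd5* from 1.29 to 0.48, and left 8 of the 16 rises above 2-fold, against 13 with the series matrix values. The count of Wnt genes called higher, 17, was 17 in each fit that left out 1 array, and 9 where all 6 arrays had to be well above background, which leaves fewer genes to test. The count called lower, 4, was 1 by the methods' t-test, 0 above 2-fold, and 2 to 4 when 1 array was left out, 2 without *Ctsk-Cre;Ano1fl/fl* replicate 1 and 2 without replicate 3. *Wnt1* was in none of these 6 fits, and the 4 without *Ano1fl/fl* replicate 3 include *Sfrp4*. *Wnt1* was lost in 12 of 15 alternatives. With the replicate number as a block, 1 gene was lower. Same-numbered arrays of the groups did not deviate together (r of 0.00, -0.06 and -0.08). Deviations from means of 3 arrays cannot show whether the samples were paired, and the controls were littermates, so this stays unknown. Using the mean of all probes turned *Wnt5b* to 0.14 and *Wnt7b* to -0.25. The methods' t-test at an unadjusted p under 0.05 called 21 of the 26 Wnt genes, and 17 after Benjamini-Hochberg adjustment.

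In the surface list, the count of 4 lower genes was 1 without a filter on dim probes, 1 by the methods' t-test, and 1 to 3 when 1 array was left out, 1 without *Ano1fl/fl* replicate 1 and 1 without *Ctsk-Cre;Ano1fl/fl* replicate 2 or 3. With the mean of all probes, 5 genes in place of 8 were higher in the destruction complex list, 5 in place of 9 in the polarity and calcium list, and 5 in place of 3 lower in the target list. The causes were not tested. The 75th percentile scaling moved the median of all genes from -0.06 to -0.12 and the share of calls that were higher from 44.7% to 38.4%.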
